A study of Mus musculus with 8 samples.

Results

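The cytosolic ribosomal protein genes were followed in late 2-cell mouse embryos that had received an antibody against COPS3, a subunit of the COP9 signalosome, with or without Trim21 mRNA. Members were taken by gene symbol: Rpl or Rps with a number and an optional a or x, plus Rplp0, Rplp1, Rplp2, Rpsa and Fau, where a transcript cluster of the array named that gene alone. A total of 40 clusters met the rule, and after the brightest cluster of each gene was kept they gave 33 genes of the 30701 tested, 18 of the large subunit and 15 of the small subunit. RefSeq lists 77 protein-coding mouse genes whose symbols meet the rule. Of these, 37 were read only on clusters that name several genes and are described apart from the members, and the rest were not analysed here.

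A ribosome is built from a large and a small subunit, each a scaffold of ribosomal RNA that carries a fixed set of proteins, and the genes of these proteins are among the most strongly expressed of any growing cell. Their mRNAs begin with a run of pyrimidines, the 5′ terminal oligopyrimidine tract, through which LARP1 and the mTOR pathway set how many of them are translated. The mouse 2-cell stage is the time at which most maternal mRNA is lost and the embryo's own genome is switched on, and ribosomal protein genes are among those transcribed by the embryo at this stage.

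All 8 arrays held RNA from pools of 100 embryos of a B6C3F1 x CD1 cross, 2 pools in each of 4 groups. The first group received Trim21 mRNA together with the anti-COPS3 antibody, the combination used to send an antibody's target to the proteasome through the ubiquitin ligase TRIM21. Another group received the anti-COPS3 antibody alone, another Trim21 mRNA alone, and the last was left non-manipulated in the incubator. Zygotes were injected into the ooplasm at the mid-pronuclear stage and cultured for 28 hours per the treatment protocol, while the stage label of the samples reads 24 hours. The protocol text does not describe the antibody-alone group, and no group received a control antibody. Both antibody groups are labelled as stunted, with many zygotes that had not divided, and both antibody-free groups as normal. The 4 groups were produced on 4 different days, with both of a group's pools sharing the day, so that day and group cannot be told apart and the p-values measure only the spread between pools of 1 day. A pool with fewer dividing embryos and a pool with less of a transcript in each embryo cannot be told apart either.

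Trim21 itself read 10.40 and 10.30 with both agents and 9.77 and 10.14 with Trim21 mRNA alone, against 6.76 and 6.37 with antibody alone and 6.27 and 5.65 in non-manipulated embryos, which follows the labels. The antibody binds the COPS3 protein, so Cops3 mRNA is no check of it. Cops3 mRNA read 9.06 and 9.40 with both agents and 8.85 and 8.86 with antibody alone, against 10.00 and 9.97 with Trim21 mRNA alone and 9.50 and 9.52 in non-manipulated embryos. The 12 embryo and oocyte markers had a mean level of 13.06 to 13.32 with both agents and 12.86 to 13.29 with antibody alone. It was 12.32 to 12.34 with Trim21 mRNA alone and 12.57 to 12.63 in non-manipulated embryos. This mean was higher in all 4 antibody arrays, where the median of the ribosomal protein genes was lower. With both agents against Trim21 mRNA 7 of the 12 were called higher and 1 lower, where 8.73% and 14.5% of all genes were. Zp3 read 11.03 and 10.69 with both agents, against 12.56 and 12.33 with Trim21 mRNA alone, and Dppa3 was lower in all 4 antibody arrays. The 3 measured of 4 oviduct markers had a mean level of 6.47 to 6.78 with both agents and 7.03 to 7.38 with antibody alone, against 7.34 to 7.46 with Trim21 mRNA alone and 7.39 to 7.41 in non-manipulated embryos. These 3 did not move together. Epcam read 8.14 and 8.55 with both agents, against 10.75 and 10.62 with Trim21 mRNA alone. Ovgp1 read 6.13 and 6.37 with both agents, against 6.81 and 6.47. Pax8 went the other way, with 5.15 and 5.42 with both agents, against 4.83 and 4.92. The part of these markers in the results was not tested. The array-wide correlation of a group's 2 pools was 0.986 with both agents, 0.956 with antibody alone, 0.996 with Trim21 mRNA alone and 0.998 in non-manipulated embryos. In the first pool of antibody alone and in both pools with both agents, 136, 169 and 151 clusters stood at the array's highest value, against 1 in each of the other 5 arrays, and no member stood there in any array.

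Promoters of 28 members were found in RefSeq, 34 in all on build GRCm38.p6, and 6 are shown from 30 bases before the annotated start to 20 bases from it, because they include members at both ends of the range of change. Capitals mark the longest run of C and T where it was 8 bases or more. Fau and Rpl35 were among the members that fell most with both agents, and Rps18 was the member that fell least. In these 3 the run spans the annotated start, as it would for an mRNA that begins with the tract:
Fau, chr19:6057917-6057966, plus strand: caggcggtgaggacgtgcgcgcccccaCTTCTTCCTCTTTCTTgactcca
Rpl35, chr2:39005112-39005161, minus strand: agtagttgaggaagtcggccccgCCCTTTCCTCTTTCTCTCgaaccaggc
Rps18, chr17:33955646-33955695, minus strand: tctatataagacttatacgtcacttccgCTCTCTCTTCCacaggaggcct
Rpl27 and Rps15, which also fell strongly, and Rpl41, which fell little on the cluster used, had no such run in the window around the start that RefSeq annotates:
Rpl27, chr11:101442215-101442264, plus strand: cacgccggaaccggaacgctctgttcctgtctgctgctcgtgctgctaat
Rps15, chr10:80292401-80292450, plus strand: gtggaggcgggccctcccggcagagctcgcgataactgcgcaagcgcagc
Rpl41, chr10:128549149-128549198, minus strand: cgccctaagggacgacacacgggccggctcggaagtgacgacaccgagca

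A run of 8 or more pyrimidines lay at least in part within 25 bases of the start in 52.9% of the 34 member promoters, against 24.1% of all 32851 promoters in the table and 23.6% of the protein-coding ones. A run of 5 or more covered the start base itself in 23.5% of member promoters, against 5.6% of protein-coding ones. The ETS core CCGGAAG was found on either strand of the 300-base promoters in 38.2% of the members' and 11.6% of all protein-coding ones, the SP1 core GGGCGG in 17 of 34 and 46.2%, and the YY1 core AAGATGG in 14.7% and 6.2%. The end of the ETS core and the start of the YY1 core share the letters AAG, so that 1 stretch can match both. These are matches of letters, and a gene may start elsewhere in the embryo. The 17 members with a run of 8 or more had a median log2 change of -2.54 with both agents against Trim21 mRNA, and the 11 whose promoter had none a median of -2.33.

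Every member was lower in embryos with both Trim21 mRNA and antibody than in embryos with Trim21 mRNA alone. In limma's moderated test over all genes with Benjamini-Hochberg adjustment, 33 of 33 members were called lower at an adjusted p under 0.05 and none higher, where 14.5% of all genes tested were called lower. The median log2 change of the members was -2.54, a 5.82-fold lower level, against 0.21 over all genes. Members are brighter than most genes: among the genes with a mean level of at least 8, 47.2% were called lower, and all 27 members above that level were among them. In each of the 33 the levels of both pools with both agents lay below both Trim21 mRNA pools, which held for 26.4% of all genes.

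**Figure D1:**
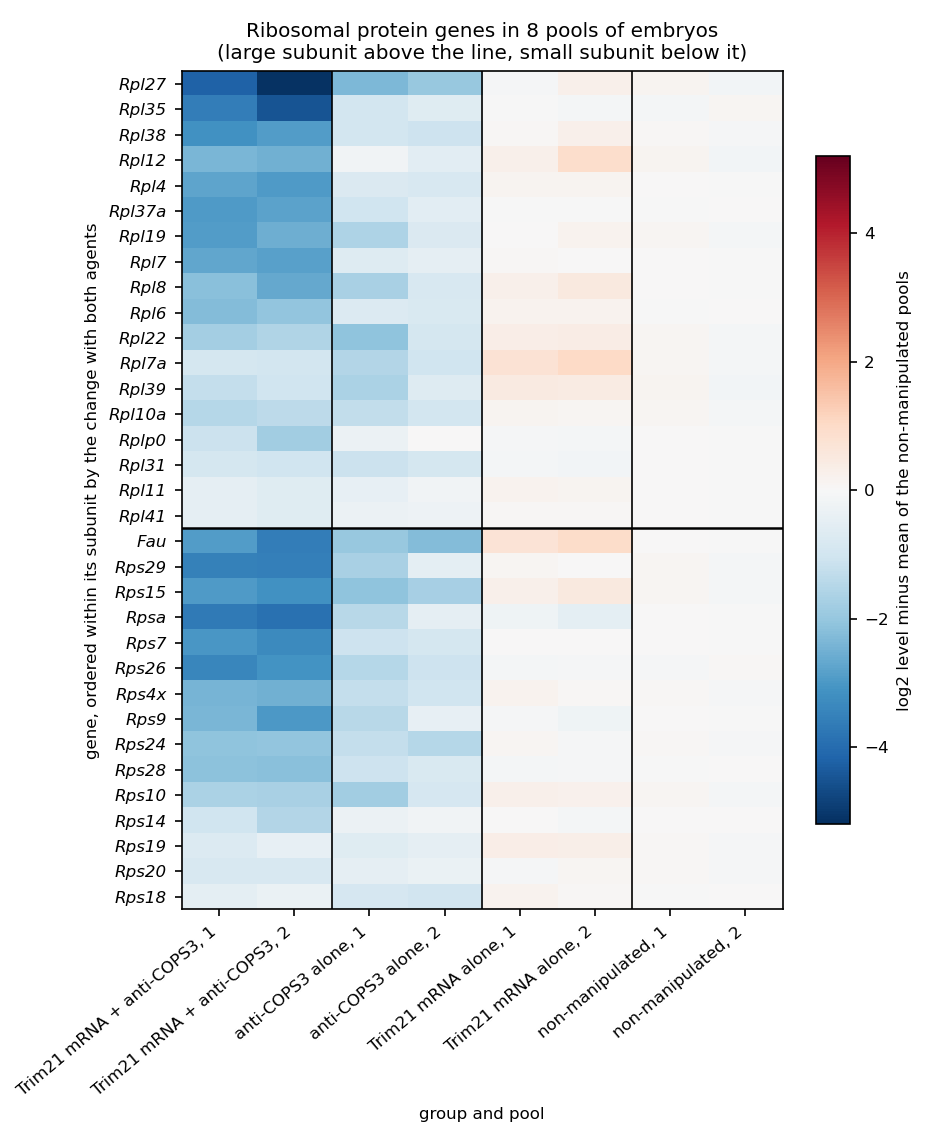
Level of each of the 33 genes (rows) in each of the 8 pools (columns) as the log2 difference from the mean of the 2 non-manipulated pools, blue for lower and red for higher. The columns with both agents are darkest for most genes, with Rpl27 and Rpl35 at the top of the large subunit and Fau and Rps29 at the top of the small subunit, and the Trim21 mRNA columns stay close to 0 for most genes.

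The largest fall on the clusters used was that of Rpl27, a large-subunit protein that is mutated in some patients with Diamond-Blackfan anaemia. Its log2 level was 10.95 and 10.05 with both agents, against 15.13 and 15.44 with Trim21 mRNA alone. Both treated pools were far below both others, and the gene fell by 4.79 on the log2 scale (SE 0.32, adjusted p 0.000124 in limma), a 27.6-fold lower level. For Rpl27, Fau and Rpl35 the cluster used carries another chromosome than the gene, and on the cluster of the gene's own chromosome the changes were smaller, at -2.67, -2.73 and -2.80, so that their rank rests on the choice of cluster. Fau, which encodes a small-subunit protein made as a fusion to a ubiquitin-like protein, read 12.15 and 11.46 with both agents, against 15.79 and 16.03 with Trim21 mRNA alone. Rpl35, at the rim of the tunnel through which the new protein leaves the ribosome, read 12.96 and 12.05 with both agents, against 16.54 and 16.45 with Trim21 mRNA alone. These 2 fell by 4.11 (SE 0.25) and 3.99 (SE 0.30) on the log2 scale, and the treated pools of Rpl35 were the farthest apart of any member in that group, with a gap of 0.91.

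Next came 3 small-subunit genes. Rps29, a protein of the small-subunit head, read 10.95 and 10.93 with both agents, against 14.56 and 14.48 with Trim21 mRNA alone. Rps15, which sits near the decoding site, read 10.94 and 10.72 with both agents, against 14.12 and 14.39 with Trim21 mRNA alone. Rpsa, near the exit of the mRNA channel and also known as the laminin receptor, read 6.82 and 6.58 with both agents, against 10.26 and 9.97 with Trim21 mRNA alone. In all 3 the pools of a group lay close together and the groups were more than 10-fold apart: the log2 changes were -3.58 (SE 0.35), -3.43 (SE 0.20) and -3.42 (SE 0.32).

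The smallest falls on the clusters used were those of Rps18, Rpl41, Rpl11, Rps20 and Rpl31. Rps18, a protein of the small-subunit head, read 6.75 and 6.94 with both agents, against 7.46 and 7.34 with Trim21 mRNA alone, a log2 change of -0.56 (SE 0.15, adjusted p 0.0398 in limma). Rpl41, which encodes one of the shortest known proteins, read 18.73 and 18.58 with both agents, against 19.26 and 19.26 with Trim21 mRNA alone, on a cluster close to the top of the array's range and on another chromosome than the gene; on its own-chromosome cluster the change was -1.30. Rpl11, which joins Rpl5 and 5S rRNA before they enter the large subunit and which can bind MDM2, read 6.52 and 6.34 with both agents, against 7.14 and 7.11 with Trim21 mRNA alone. All of these groups were apart and all 5 genes were called, yet the call of Rps18 held in 8 of 18 alternatives, that of Rpl41 in 12 of 18 and that of Rpl11 in 13 of 18. Rps20 and Rpl31 both changed by -0.85 on the log2 scale (SE 0.15 each). For Rpl31 this was read on a cluster on another chromosome than the gene. Its own-chromosome cluster, which names 2 genes, changed by -2.15.

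The large and the small subunit had nearly the same median fall. The median log2 change with both agents against Trim21 mRNA was -2.57 over 18 large-subunit genes and -2.54 over 15 small-subunit genes, a difference of -0.03 between the medians. Pool by pool, the large-subunit genes lay 2.21 and 2.27 below the non-manipulated mean with both agents (medians of -2.21 and -2.27), at -0.99 and -0.77 with antibody alone, and at 0.11 and 0.15 with Trim21 mRNA alone. The small-subunit genes lay at -2.39 and -2.49 with both agents, at -1.23 and -0.86 with antibody alone, and at 0.10 and 0.04 with Trim21 mRNA alone. Relative to the non-manipulated mean the small subunit was thus the lower one in all 4 antibody pools, by 0.08 to 0.24. The spread of this difference between pools of a group was 0.07 (pooled SD). On the clusters that name several genes, described below, the large subunit had the lower median change both with both agents against Trim21 mRNA and with antibody alone. With both agents against Trim21 mRNA the difference between the subunits changed sign with the members counted and the pool left out. In the other comparisons it kept its sign whichever pool was left out. No p is given for this difference because it is a score over chosen genes.

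**Figure D2:**
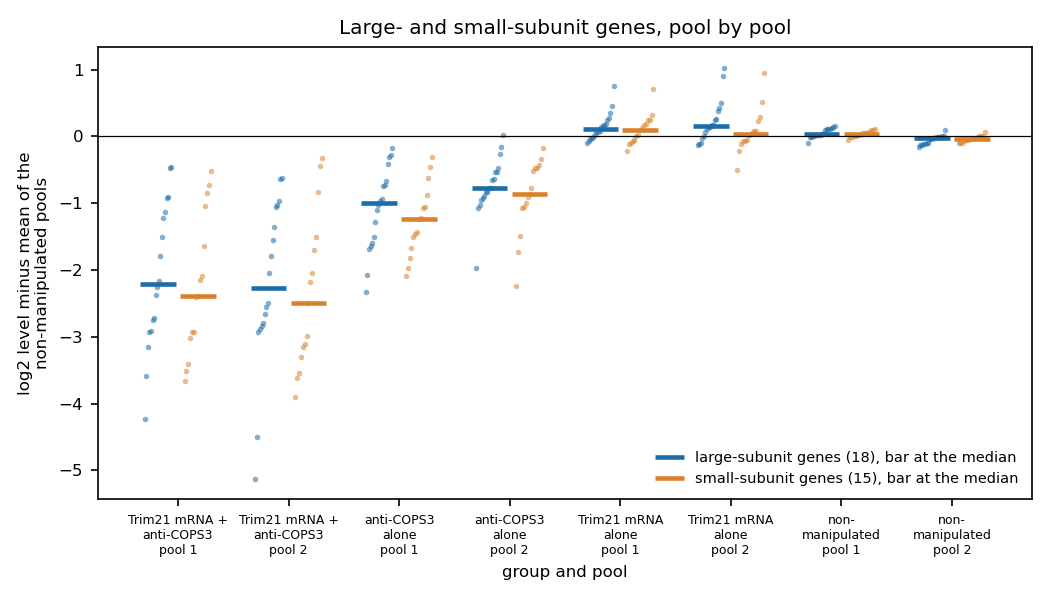
Log2 level minus the mean of the non-manipulated pools for each large-subunit gene (blue points) and small-subunit gene (orange points) in each pool, with bars at the medians. With both agents the medians lie between -2.21 and -2.49, with antibody alone between -0.77 and -1.23, and in the antibody-free pools between -0.04 and 0.15.

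Like all 33 members, those on the mRNA channel and at the decoding site were called lower with both agents against Trim21 mRNA. The 5 measured genes of that list (Fau, Rpsa, Rps15, Rps26 and Rps28) had a median log2 change of -3.42 on the clusters used. Its other genes were read on clusters naming several genes. There Rps2 changed by -1.56, -1.215 and -2.11, Rps3 by -2.055 and Rps23 by -3.715. Differences between places in the ribosome were not tested. Rps26, which contacts mRNA at the exit of the channel, read 13.27 and 13.56 with both agents, against 16.56 and 16.61 with Trim21 mRNA alone. Rps28, also near the mRNA exit, read 6.76 and 6.73 with both agents, against 8.81 and 8.83 with Trim21 mRNA alone. The groups of both genes were apart by far more than their pools, and the log2 changes were -3.17 (SE 0.20) and -2.08 (SE 0.16).

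All 7 measured genes of the peptide exit tunnel and its rim were called lower, as all 33 members were, with a median of -2.83. Rpl4, which sends a loop into the tunnel, read 13.92 and 13.73 with both agents, against 16.81 and 16.80 with Trim21 mRNA alone, a change of -2.98 (SE 0.15). Rpl38, whose loss in the mouse disturbs translation of Hox mRNAs and the axial skeleton, read 8.69 and 8.95 with both agents, against 11.90 and 12.08 with Trim21 mRNA alone, a change of -3.17 (SE 0.17). Rpl19 changed by -2.83 (SE 0.29), Rpl22, an RNA-binding protein with the close relative Rpl22l1, by -2.03 (SE 0.36), and Rpl39, a very small protein inside the tunnel, by -1.58 (SE 0.31). The calls of Rpl4, Rpl38 and Rpl19 held in all 19 alternatives and that of Rpl39 in 13 of 19.

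Of the stalk that recruits the elongation factors, Rplp0 and Rpl12 were measured on clusters of their own. Rpl12, at the stalk base, read 11.02 and 10.90 with both agents, against 13.64 and 14.29 with Trim21 mRNA alone, a change of -3.01 (SE 0.26). This was read on a cluster on another chromosome than the gene. The own-chromosome cluster of Rpl12, which names 2 genes, changed by -1.505. Rplp0, the scaffold of the stalk, read 13.95 and 13.28 with both agents, against 15.00 and 14.96 with Trim21 mRNA alone, a change of -1.37 (SE 0.24). The groups of both genes were apart, and Rplp0 was not called after quantile normalization (log2 change -0.34, adjusted p 0.254 in limma). Rps19, the first gene found mutated in Diamond-Blackfan anaemia, read 6.97 and 7.25 with both agents, against 8.02 and 7.98 with Trim21 mRNA alone, a change of -0.89 (SE 0.16). As with all 33 members, the 11 measured genes of the Diamond-Blackfan list were all called lower, with a median of -2.09. So were all 15 measured genes that bacteria and archaea share, with a median of -2.80.

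With antibody alone the members were lower by less. Against non-manipulated embryos 19 of 33 members were called lower in limma and none higher, where 7.29% of all genes were called lower, and the median log2 change was -0.99, against 0.18 over all genes. Both antibody pools lay below both non-manipulated pools for 32 of the 33 members, which held for 21.5% of all genes. The exception was Rplp0, with 14.79 and 15.09 with antibody alone, against 15.10 and 15.05 in non-manipulated embryos. The calls rest on the spread shared by all 4 groups and depended on which pools were fitted. When only these 2 groups were fitted none of the 33 was called, where 0% of all genes were called lower or higher. That fit called no gene at all, so its count does not set the members apart. Of the 27 members with a mean level of at least 8, 19 were called lower, against 27.6% of all genes above that level.

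Rpl27, Fau and Rps15 had the lowest changes in this comparison. Rpl27 read 12.85 and 13.21 with antibody alone, against 15.31 and 15.04 in non-manipulated embryos, a log2 change of -2.15 (SE 0.32, adjusted p 0.0108 in limma). Fau read 13.11 and 12.83 with antibody alone, against 15.11 and 15.04 in non-manipulated embryos, a change of -2.11 (SE 0.25). Rps15 read 11.79 and 12.14 with antibody alone, against 13.97 and 13.78 in non-manipulated embryos, a change of -1.91 (SE 0.20). In these 3 genes the groups were apart by more than any gap between pools. Rpl22, Rps24 and Rps10 came next, with changes of -1.49 (SE 0.36), -1.36 (SE 0.16) and -1.34 (SE 0.30). Rpl22 read 7.15 and 8.33 in the pools with antibody alone, the widest gap of any member in any group, against 9.33 and 9.12 in non-manipulated embryos.

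At the other end stood Rplp0 at -0.14 (SE 0.24), Rps14 at -0.25 (SE 0.19), and Rpl11 and Rpl41 at -0.29 each, none of them called. The 2 antibody-alone pools were less alike than those of the other groups. The first was below the second for 26 of the 33 members, by a median of 0.29, an order that 37.2% of all genes had. Between the antibody-alone pools 8 members differed by over 0.5, where 41.6% of all genes did, and between the pools with both agents 5 did, where 19.1% of all genes did. In the Trim21 mRNA pools 1 member differed by that much, and in the non-manipulated pools 0 did, where 3.48% and 2.39% of all genes did. The 8 cumulus and granulosa markers did not move together here: 2 were called higher and 1 lower, where 2.76% and 7.29% of all genes were. Cyp11a1, an enzyme of steroid synthesis, read 9.93 and 9.05 with antibody alone, against 6.38 and 6.32 in non-manipulated embryos. Amhr2 went the other way, with 10.27 and 9.62 with antibody alone, against 12.02 and 11.99 in non-manipulated embryos. The mean of all 8 such markers was 6.14 to 6.38 with antibody alone and 5.87 to 5.91 in non-manipulated embryos. The part of these markers in the change of the ribosomal protein genes was not tested.

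**Figure D3:**
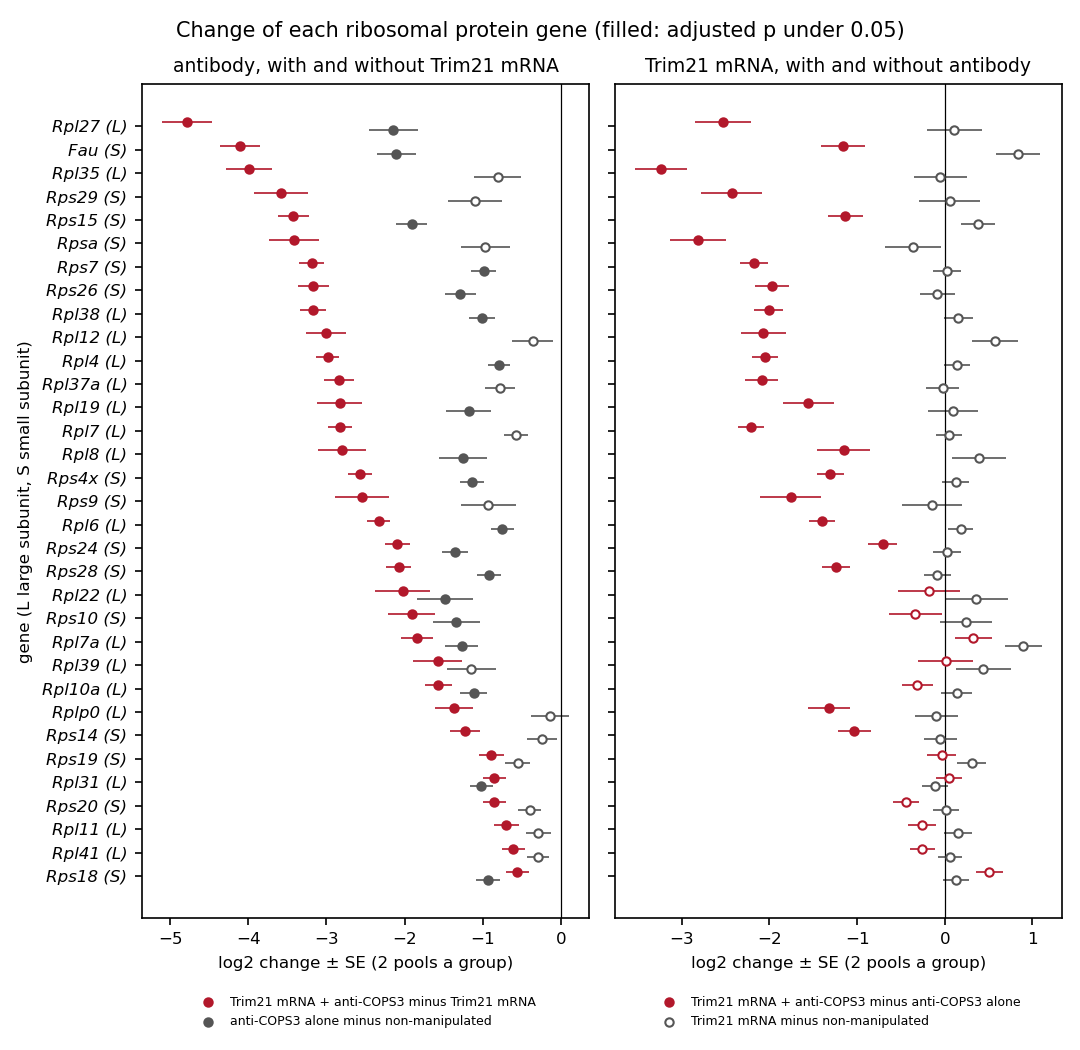
Log2 change of each gene with its standard error, left for the antibody with Trim21 mRNA (red) and without it (grey), right for Trim21 mRNA with the antibody (red) and without it (grey), filled where the adjusted p was under 0.05. On the left all 33 red points are filled and 19 of the grey ones, and on the right 22 red points are filled and none of the grey ones.

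No member was called with Trim21 mRNA alone. Against non-manipulated embryos 0 of 33 were called lower or higher in limma, where 0% of all genes were called lower and 0.00326%, which is 1 gene, higher. That gene was Trim21, the injected mRNA. Its log2 change of 3.995 was only just called (adjusted p 0.0477 in limma), so smaller changes could be missed here. No member had an unadjusted p under 0.05 in the lower direction. The median log2 change was 0.11, against 0.04 over all genes, and turned to -0.02 when each array was centred on its median. Both Trim21 mRNA pools were above both non-manipulated pools for 18 members, below them for 6 and overlapping for 9, where 33.8% of all genes were above, 26.9% below and 39.4% overlapping. Rpl7a, a large-subunit protein, read 15.46 and 15.73 with Trim21 mRNA alone, against 14.81 and 14.59 in non-manipulated embryos, a change of 0.90 (SE 0.21, adjusted p 0.553 in limma). Fau was next at 0.84 (SE 0.25), then Rpl12 at 0.58 (SE 0.26) and Rpl39 at 0.44 (SE 0.31). With only these 2 groups in the fit Rpl7a and Fau were called higher, with adjusted p of 0.0324 and 0.0286. The lowest were Rpsa at -0.37 (SE 0.32), Rps9 at -0.15 (SE 0.35) and Rpl31 at -0.12 (SE 0.15), followed by Rplp0, Rps26 and Rps28.

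Most members were lower with both agents than with antibody alone. Between embryos with both agents and embryos with antibody alone, 22 of 33 members were called lower in limma and none higher, where 10.5% of all genes were called lower. Among genes at a mean level of at least 8 the share called lower was higher, and it is given with the lists below. The median log2 change of the members was -1.24, against 0.05 over all genes, with -1.36 in the large subunit and -1.17 in the small subunit. Both pools with both agents lay below both antibody-alone pools for 26 members and above them for 2, where 22.4% of all genes were below and 23.3% above. When only these 2 groups were fitted, 12 members were called lower.

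Rpl35 led this comparison, with 12.96 and 12.05 with both agents, against 15.58 and 15.90 with antibody alone, a change of -3.24 (SE 0.30). Rpsa was next, with 6.82 and 6.58 with both agents, against 9.02 and 10.01 with antibody alone, at -2.82 (SE 0.32), then Rpl27 at -2.53 (SE 0.32), Rps29 at -2.43 (SE 0.35), Rpl7 at -2.21 (SE 0.15) and Rps7 at -2.18 (SE 0.16). Rpl7 is a large-subunit protein that binds 28S rRNA and Rps7 a small-subunit protein mutated in some Diamond-Blackfan families. Rps7 read 10.54 and 10.26 with both agents, against 12.50 and 12.65 with antibody alone, and Rpl7 read 6.5 and 6.38 with both agents, against 8.55 and 8.75 with antibody alone. In both genes the groups were apart by far more than their pools.

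The members with the highest changes ran level or the other way. Rps18 read 6.75 and 6.94 with both agents, against 6.39 and 6.28 with antibody alone, a change of 0.51 (SE 0.15, adjusted p 0.0711 in limma). Rpl7a read 13.78 and 13.73 with both agents, against 13.19 and 13.67 with antibody alone, a change of 0.33 (SE 0.21, adjusted p 0.374). On the clusters used, Rpl31 and Rpl39 were level, at 0.05 (SE 0.15) and 0.01 (SE 0.31). The own-chromosome cluster of Rpl31, which names 2 genes, changed by -1.575 (adjusted p 0.00996 in limma over all clusters). Rps18 and Rpl7a were the 2 members above in both pools, and after quantile normalization both were called higher, at 0.62 and 1.01.

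The antibody effect was larger with Trim21 mRNA than without it for 31 of the 33 members. In the test of this difference itself (the interaction, the change with both agents against Trim21 mRNA minus the change with antibody alone against non-manipulated embryos), 16 of 33 members were called lower in limma and none higher, where 3.46% of all genes were called lower. Here too the share was higher among genes at a mean level of at least 8, as given with the lists below. The median difference of the members was -1.52 on the log2 scale, against -0.01 over all genes, with -1.56 in the large and -1.43 in the small subunit. As a description over the 33 genes, the change with antibody alone was 0.44 of the change with both agents at the median, and the 2 changes had a Pearson r of 0.58 and a Spearman rho of 0.42; the 2 contrasts share no array.

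The difference was widest for Rpl35, at -3.19 (SE 0.42, adjusted p 0.0121 in limma), where antibody alone changed the level by -0.81 and the 2 agents together by -3.99. Rpl12 followed at -2.65 (SE 0.37), then Rpl27 at -2.64 (SE 0.45), Rps29 at -2.49 (SE 0.49), Rpsa at -2.45 (SE 0.45) and Rpl7 at -2.26 (SE 0.21). On the cluster of the gene's own chromosome the difference was -1.03 for Rpl27 (adjusted p 0.0718) and -1.01 for Fau (adjusted p 0.0948), neither of them called, and -2.19 for Rpl35 (adjusted p 0.0233). On the clusters used, all 5 measured genes of the mRNA channel list were among the 16, as were 3 of the 7 measured genes of the exit tunnel list. Of the 2 measured stalk genes 1 was among the 16. With each array centred on its median 8 members kept their call. None of the 5 mRNA channel genes did (adjusted p of 0.0519 to 0.142 in limma). Rps18 at 0.38 (SE 0.21) and Rpl31 at 0.17 (SE 0.21) had the difference in the other direction, and Rpl41 and Rps19 stood at -0.32 (SE 0.20) and -0.34 (SE 0.23), all 4 without a call. The own-chromosome clusters of Rpl31 and Rpl12, which name 2 genes each, gave other values. With both agents against Trim21 mRNA they changed by -2.15 for Rpl31 and -1.505 for Rpl12. With antibody alone against non-manipulated embryos they changed by -0.725 for Rpl31 and -0.29 for Rpl12. The calls in the interaction depended on which pool was left out, and leaving out a pool changes the spread used for every gene.

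**Figure D4:**
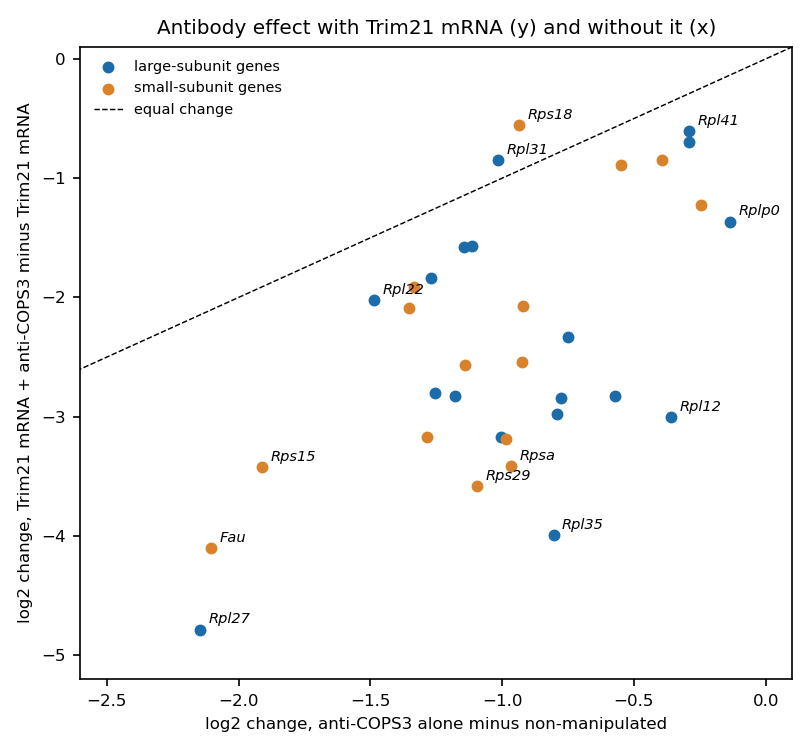
Log2 change of each gene with both agents against Trim21 mRNA (vertical axis) and with antibody alone against non-manipulated embryos (horizontal axis), large subunit in blue and small subunit in orange, with a dashed line at equal change. All points but Rps18 and Rpl31 lie below the line, Rpl35 and Rpl12 far below it, and Rpl27, Fau and Rps15 are at the low end on both axes.

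Brighter members fell further. For the 20 members at a level of 10 or more in non-manipulated embryos the median log2 change with both agents against Trim21 mRNA was -2.99, and for the 13 below it was -1.57; over the 33 genes Pearson's r between level and change was -0.55 and Spearman's rho -0.59. The array level of a cluster depends on its probes as well as on its RNA, so the levels do not rank the genes by abundance. In the antibody-alone comparison the 2 medians were -1.12 and -0.92.

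For 7 members the identifier of the cluster used carries another chromosome than the gene: Fau, Rpl12, Rpl27, Rpl31, Rpl35, Rpl41 and Rpl7a. Over all genes with both chromosomes known, the 2 were the same for 99.8%. For 5 of the 7 a cluster on the gene's own chromosome names that gene alone. On it the log2 change with both agents against Trim21 mRNA was -2.67 for Rpl27, -2.73 for Fau, -2.80 for Rpl35, -1.50 for Rpl7a and -1.30 for Rpl41, so that the first 3 moved less than on the brighter cluster and Rpl41 more. For Rpl31 and Rpl12 the own-chromosome cluster names 2 genes. In the fit of all clusters its change in this comparison was -2.15 for Rpl31 and -1.505 for Rpl12. For Rpl31 that was a larger fall than on the cluster used, and for Rpl12 a smaller one. For Rpl27 the cluster on its own chromosome read 7.63 and 7.44 with both agents and 8.44 and 8.65 with antibody alone, against 10.25 and 10.16 with Trim21 mRNA alone and 10.30 and 10.07 in non-manipulated embryos. Without these 7 genes all 26 others were called lower with both agents against Trim21 mRNA. Rps26 has 3 clusters, of which the one used and a second on another chromosome changed by -3.17 and -3.87, while the last, near the array's median level, changed by 0.98 and was not called.

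**Figure D5:**
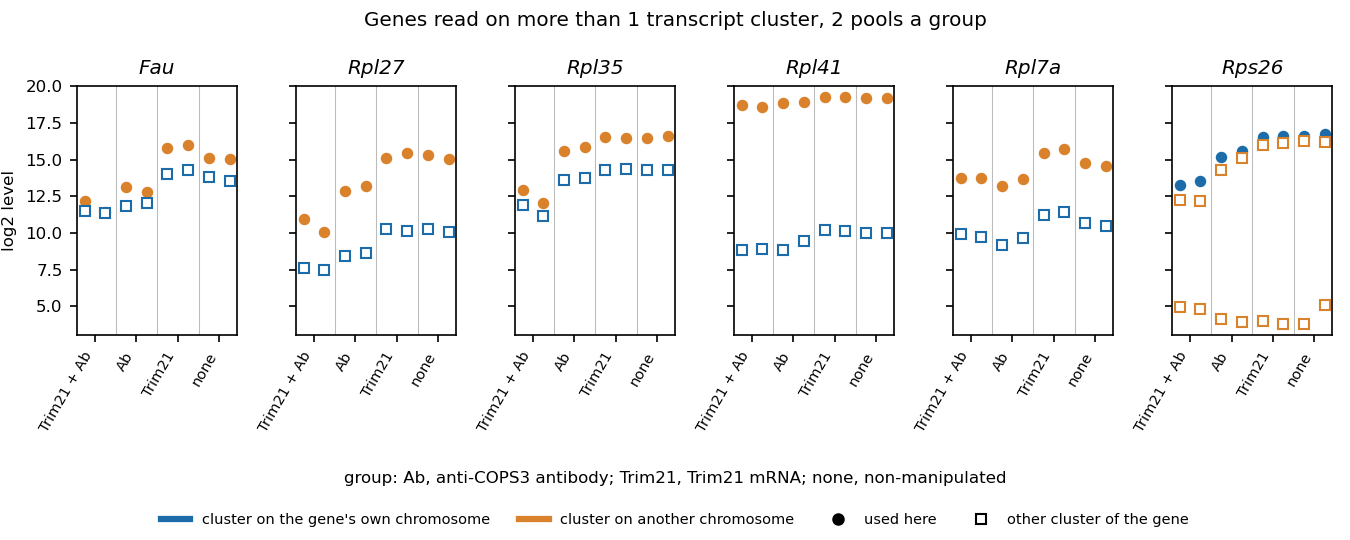
Log2 level in each pool for the 6 genes read on more than 1 cluster, filled circles for the cluster used and open squares for the others, blue where the cluster's identifier carries the gene's own chromosome and orange where it carries another. The pools with both agents are lowest on both clusters of Rpl27, Rpl35 and, among the bright clusters, of Rps26, and the pools with antibody alone are lowest for Rpl7a.

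The 37 genes of the rule outside the 33 were read on 49 clusters that also name another gene. Of these clusters 45 were called lower with both agents against Trim21 mRNA and none higher in a fit of all clusters, with a median log2 change of -2.06. With antibody alone against non-manipulated embryos 13 were called lower and none higher, with a median of -0.85. All 13 were of the large subunit. Over all 52 clusters naming several genes, 13 of 35 for the large and 0 of 17 for the small subunit were called lower there. The medians were -0.915 in the large and -0.72 in the small subunit. With both agents against Trim21 mRNA they were -2.095 and -1.875, with 32 of 35 and 16 of 17 called lower. Rps6, the small-subunit protein phosphorylated by S6 kinase, was among those genes, and its cluster read 7.69 and 7.81 with both agents, against 9.51 and 9.46 with Trim21 mRNA alone, a change of -1.74. Over all 65955 clusters 5854 were called lower in the first of these comparisons and 2307 in the second. Clusters named for ribosomal protein pseudogenes, which share long stretches of sequence with the genes, had a median of -2.62 with both agents against Trim21 mRNA, and 179 of 220 were called lower. Array signal cannot be divided between a ribosomal protein gene and its near-identical copies, and this holds for members too.

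Of 11 relatives or further ribosomal protein genes outside the rule, 8 were measured. Of these 8, 7 were called lower with both agents against Trim21 mRNA, with a median of -2.6. The share called lower was 14.5% over all genes and 47.2% over genes at a mean level of at least 8. Rps4l, a relative of the X-linked Rps4x, read 8.75 and 8.24 with both agents, against 12.93 and 12.93 with Trim21 mRNA alone, a change of -4.44 (SE 0.28), beside -2.57 (SE 0.15) for Rps4x. Rps3a1, which encodes an ordinary protein of the small subunit, changed by -2.47 (SE 0.23), Rpl39l, a relative of Rpl39 enriched in testis, by -2.73 (SE 0.37), and Rpl3l, a relative of Rpl3 found in muscle, by -1.25 (SE 0.19). With antibody alone against non-manipulated embryos 2 of the 8 were called lower, Rps4l at -2.36 (SE 0.28) and Rpl39l at -1.80 (SE 0.37). That share was near the 27.6% called lower among genes at a mean level of at least 8, where all genes had 7.29%. Rpl22l1 read 5.49 and 9.76 in the 2 pools with antibody alone, against 10.01 and 10.00 in non-manipulated embryos, so that 1 pool decides its mean. With both agents against antibody alone 4 of the 8 were called lower, where 10.5% of all genes were. Among them were Rps3a1 at -1.97 (SE 0.23) and Rps27l at -0.99 (SE 0.16). In the interaction 2 of the 8 were called lower, where 3.46% of all genes were: Rps3a1 at -1.99 (SE 0.33) and Rps4l at -2.08 (SE 0.39).

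The counts of the relatives above and of the next 3 lists are set against the shares of all genes called lower. These were 14.5% with both agents against Trim21 mRNA and 7.29% with antibody alone against non-manipulated embryos. They were 10.5% with both agents against antibody alone and 3.46% in the interaction. Among genes at a mean level of at least 8 they were, in the same order, 47.2%, 27.6%, 40.3% and 21.2%. In the last 3 of these comparisons the counts of the relatives were near these latter shares. Of the other mRNAs known for a 5′ terminal oligopyrimidine tract, most were lower with both agents. With both agents against Trim21 mRNA 12 of 17 measured genes were called lower and none higher, with a median of -1.73. Eif3h, a subunit of initiation factor 3, changed by -3.60 (SE 0.28), Pabpc1, the cytoplasmic poly(A)-binding protein, by -2.76 (SE 0.18), Eef2, the translocation factor of elongation, by -2.68 (SE 0.20) and Npm1, a nucleolar chaperone, by -1.80 (SE 0.16). Eef2 read 11.53 and 11.63 with antibody alone, against 14.07 and 14.06 in non-manipulated embryos, and was 1 of 5 called lower in that comparison, with Pabpc1, Eif3f and Eef1d among the others. With both agents against antibody alone 6 of 17 were called lower, Pabpc1, Eef1b2, Npm1 and Eif3h with the smallest p. In the interaction 5 of 17 were, with Npm1, Pabpc1, Eef1b2 and Eif3h leading by p. The counts of this list in these 2 comparisons and with antibody alone were near the shares of genes at a mean level of at least 8. Vim and Eef1g had the smallest p with Trim21 mRNA alone against non-manipulated embryos, at -0.91 (SE 0.45) and 0.24 (SE 0.14), and neither was called.

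Among 17 measured regulators of ribosomal protein mRNA translation, 10 were called lower with both agents against Trim21 mRNA and none higher, with a median of -0.96. Larp1, which binds the cap and the pyrimidine tract of these mRNAs, read 10.71 and 11.00 with both agents, against 14.09 and 13.97 with Trim21 mRNA alone, a change of -3.18 (SE 0.23). Its relative Larp1b changed by -3.19 (SE 0.20), Larp4, which binds poly(A), by -2.20 (SE 0.21), and Eif4e, the cap-binding initiation factor, by -1.92 (SE 0.15). With antibody alone against non-manipulated embryos 5 of 17 were called lower, a share near that of all genes at a level of at least 8. These were led by Larp1 at -2.03 (SE 0.23) and Larp1b at -1.36 (SE 0.20), with Rps6kb2 and Larp4b next by p. Eif4e read 13.50 and 13.41 with both agents, against 15.57 and 15.60 with antibody alone, and in the interaction it changed by -1.96 (SE 0.21), 1 of 3 regulators called there with Larp1b and Cnbp. Between both agents and antibody alone 5 of the 17 were called lower. In that comparison and in the interaction the share of regulators called was no higher than among genes at a mean level of at least 8. With Trim21 mRNA alone no regulator was called, Mtor at -0.29 (SE 0.18) and Larp1 at 0.37 (SE 0.23) having the smallest p.

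Of 13 measured genes listed as chaperones and release factors of ribosomal proteins, 10 were called lower with both agents against Trim21 mRNA and none higher, with a median of -1.98. Aar2 is counted with the list as compiled, although it is not known to escort a ribosomal protein. Nmd3, the export adaptor of the large subunit, read 9.44 and 9.06 with both agents, against 12.51 and 12.25 with Trim21 mRNA alone, a change of -3.13 (SE 0.23). Tsr2, which escorts Rps26, changed by -2.05 (SE 0.16), Ltv1, an assembly factor of the small subunit, by -2.50 (SE 0.21) and Zfp622, whose yeast relative acts late in assembly of the large subunit, by -1.98 (SE 0.16). With antibody alone against non-manipulated embryos 7 of 13 were called lower. Grwd1, whose yeast relative escorts the protein of Rpl3, led them at -2.62 (SE 0.29), with Tsr2 at -1.40 (SE 0.16), Sbds, which helps to release Eif6 from the large subunit, at -1.36 (SE 0.16) and Aar2 at -1.34 (SE 0.25). Between both agents and antibody alone 6 of 13 were called lower, Zfp622, Nmd3, Ltv1 and Bccip with the smallest p, and 3 in the interaction (Zfp622, Nmd3 and Ltv1). Both counts were near the shares of genes at a mean level of at least 8. With Trim21 mRNA alone Sbds and Bccip had the smallest p, at -0.42 (SE 0.16) and -0.31 (SE 0.21), without a call.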

How the data were processed

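The deposited values are log2 levels per transcript cluster from Affymetrix whole-transcript arrays, made with Affymetrix Expression Console per the submitters' processing notes; the version, summarisation and normalization between arrays were not stated in the sources at hand. A single deposited column was treated as a score because 1 cell held a value above 100, and that cluster was left out, leaving 65955 of 65956. No read or spot counts exist for these values, so depth is unknown and 8 arrays limit the precision. No 2 arrays held identical values.

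The probe annotation named 1 gene for 31257 clusters, several for 1492 and none for 33206, and 1199 symbols were updated through RefSeq. The brightest cluster by mean level stood for each of 441 genes on several clusters. All 30701 genes were fitted together on 4 group means in R 4.3.3 by the functions lmFit and eBayes of limma 3.58.1, with two-sided p-values adjusted by Benjamini-Hochberg, after a check on simulated data, with 4 residual degrees of freedom. Calls needed an adjusted p below 0.05.

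Members and lists were chosen with earlier results of these data known. Genes were named as the 6 lowest and 4 highest changes per comparison, the members of role lists, and in each list outside the members, the called genes of smallest p, at most 4, or the leading 2 by p if a list had no call. The comparisons share groups, so their values are set side by side and not correlated, except for the 2 that share no array. Pools with the same number did not deviate together (correlations of -0.191 to 0.143 over genes), so replicate numbers were not taken as pairs. Alternatives covered normalization, level filter, choice of clusters, prior, samples fitted, a replicate block and each pool left out.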

Additional observations from a re-analysis of the deposited data

Results flagged for a closer look

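The change that came with the antibody differed between embryos with and without Trim21 mRNA for 16 members, by limma's interaction test adjusted over all genes. The log2 difference was -3.19 for Rpl35, -2.65 for Rpl12, -2.64 for Rpl27, -2.49 for Rps29 and -2.45 for Rpsa. It was -2.26 for Rpl7, -2.21 for Rps7, -2.19 for Rpl4, -2.17 for Rpl38, -2.07 for Rpl37a and -2.0 for Fau. The remaining 5 were Rps26 at -1.89, Rpl6 at -1.58, Rps15 at -1.52, Rps4x at -1.43 and Rps28 at -1.16. On the cluster of the gene's own chromosome the difference was -1.03 for Rpl27 (adjusted p 0.0718 in limma) and -1.01 for Fau (adjusted p 0.0948), with no call. The own-chromosome cluster of Rpl12, which names 2 genes, changed by -1.505 with both agents against Trim21 mRNA. With antibody alone against non-manipulated embryos that cluster changed by -0.29. By definition a negative difference means a lower change with both agents against Trim21 mRNA than with antibody alone against non-manipulated embryos. The 4 groups were made on 4 days, so the difference and the days cannot be told apart.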

How the results depend on the processing

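The median change of members kept its direction under every alternative run, except that with Trim21 mRNA alone, which was -0.02 with arrays centred on their median. With both agents against Trim21 mRNA the median log2 change of members was -1.83 after quantile normalization, -1.92 after cyclic loess, -2.88 with arrays centred on their median, -2.83 at a mean level of at least 8, -2.33 with a gene's clusters averaged and -2.10 with clusters naming several genes, where 80 of 85 were called. With antibody alone it was -0.72 (quantile), -0.77 (loess) and -1.28 (centred). With only the groups compared in the fit 0 members were called, where 0% of all genes were. Trim21 mRNA alone gave 2 members called higher in that smaller fit. For both agents against antibody alone the median was -0.74 (quantile), -0.88 (loess), -1.41 (centred) and -1.40 (level filter); 2 members were called higher after quantile normalization and 2 after loess, 12 were called lower in the smaller fit, and with clusters naming several genes 52 were lower and 1 higher. In the interaction 10 (quantile) and 8 (centred) members were called, and the median was -1.11 (quantile), -1.01 (loess), -1.33 (several genes) and -1.23 (own-chromosome cluster).

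The large minus small difference with both agents against Trim21 mRNA was -0.17 (loess), 0.36 (level filter), -0.48 (clusters averaged) and -0.25 without the members on another chromosome; with antibody alone 0.24 (level filter) and 0.0075 (several genes); with both agents against antibody alone -0.10 (quantile), 0.01 (several genes) and -0.11 (own-chromosome cluster); and in the interaction 0.12 (quantile), 0 (level filter), -0.41 (clusters averaged), 0.13 (several genes), -0.23 (own-chromosome cluster) and -0.27 without the other-chromosome members. The 2 chromosome alternatives were chosen after seeing the data, and the cause of these shifts was not tested.

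Leaving out 1 pool at a time, the members called lower ranged over 24 to 33 with both agents against Trim21 mRNA, 0 to 27 with antibody alone, 16 to 25 with both agents against antibody alone (0 to 1 higher) and 0 to 23 in the interaction. The medians ranged over -1.11 to -0.78 with antibody alone, -1.39 to -1.03 with both agents against antibody alone and -1.56 to -1.12 in the interaction. The subunit difference ranged over -0.26 to 0.18 with both agents against Trim21 mRNA, 0.045 to 0.24 with antibody alone, 0.0175 to 0.12 with Trim21 mRNA alone, -0.22 to -0.065 with both agents against antibody alone and -0.25 to -0.045 in the interaction. The interaction was among the comparisons whose calls depended on the pool left out. With a replicate block 32 members were called lower with both agents against Trim21 mRNA, 14 with antibody alone, 0 with Trim21 mRNA alone, 21 with both agents against antibody alone and 11 in the interaction. The median of all genes with both agents against Trim21 mRNA was 0.21 as deposited, -0.01 (quantile), -0.02 (loess) and -0.13 (centred).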
